A study of Mus musculus with 5 samples.

Results

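Regulatory T lymphocytes (Treg) carrying Foxp3 were examined in mouse kidneys injured by aristolochic acid I (AAI), a plant toxin that damages the proximal tubule. The cells were selected on unique molecular identifiers (UMIs, each standing for a captured RNA molecule) and not by clustering. A barcode was kept with at most 30% of its UMIs from mitochondrial genes and at least 200 genes. It was counted as Treg with at least 2 UMIs over Cd3d, Cd3e and Cd3g, at least 1 UMI of Foxp3, no UMI of Cd8a or Cd8b1, at most 1 UMI over Mki67 and Top2a, and at most 2 UMIs over C1qa, C1qb and C1qc. Of 72896 barcodes, 60043 were kept, 24334 of these met the conditions other than those on Foxp3 and Cd8 and are called T lymphocytes, and 895 were Treg. The Treg numbered 15 in the control library, 247 and 336 in the AKI libraries (AKI 1 and AKI 2) and 107 and 190 in the CKD libraries (CKD 1 and CKD 2); paired values below keep this order.

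Droplet sequencing of enzyme-digested kidney from wild-type male C57BL/6 mice, 8 to 10 weeks old, gave 1 control library at week 0, 2 libraries of the acute kidney injury (AKI) phase at week 2 and 2 libraries of the chronic kidney disease (CKD) phase at week 4. AKI mice had received 3 mg/kg AAI into the peritoneum every 3 days for 2 weeks, CKD mice the same course and then 2 weeks without AAI, and control mice vehicle. Whether a library came from 1 mouse or several is not given in the sources used here, so differences between libraries of a group may be technical, and the single control allowed no test. Treg had a median of 3072 UMIs in the control, 4168 and 4072.5 in the AKI libraries and 4331 and 5552 in the CKD libraries. The control was the shallowest, and 1 of its 15 Treg barcodes held 52555 UMIs, 39.0% of the 134600 UMIs summed over them. The mitochondrial limit removed 38.7% of barcodes in the control, 11.1% and 12.7% in the AKI libraries and 12.3% and 12.6% in the CKD libraries. Kept Treg had a median mitochondrial share of 8.04% in the control, 3.23% and 3.15% in the AKI libraries and 3.57% and 3.17% in the CKD libraries.

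Treg are CD4 lineage cells in which the transcription factor FOXP3 maintains a program that restrains other T lymphocytes. They depend on interleukin 2 (IL-2) made by conventional T lymphocytes, which they bind through the high-affinity receptor chain CD25 (Il2ra), and they carry inhibitory surface proteins such as CTLA-4. Treg that live in injured tissue are also known for the alarmin receptor ST2 (Il1rl1) and for amphiregulin (Areg), a growth factor for epithelium.

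The label was checked against genes that the selection did not read, though they were chosen with earlier results of these data known. Ikzf2, which encodes the transcription factor Helios, stood at 2.45 per 10000 (UMIs of the gene per 10000 UMIs summed over the cells of a library) in the control, 5.72 and 7.14 in the AKI libraries and 5.18 and 6.86 in the CKD libraries. Conventional CD4 T lymphocytes, taken by the same limits but with no Foxp3 UMI and at least 1 Cd4 UMI, ranged from 0.475 to 1.31 in the 5 libraries, below every Treg value. Il2ra reached 1.43 and 1.65 in the AKI libraries and 0.781 and 1.29 in the CKD libraries against 0.114 to 0.229 in conventional CD4 T lymphocytes of these libraries. In the control only 1 UMI of Il2ra was counted over the 15 Treg (0.0743 per 10000), so the label rests on Ikzf2 and Ctla4 there. On GRCm39, Foxp3 (ENSMUSG00000039521) lies on chromosome X from 7439883 to 7461484, Il2ra (ENSMUSG00000026770) on chromosome 2 from 11647618 to 11698004 and Ikzf2 (ENSMUSG00000025997) on chromosome 1 from 69570373 to 69727004, and the annotation lists all as protein-coding genes.

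Foxp3 itself, which chose the cells, was sparse: 466 of the 895 Treg had 1 Foxp3 UMI, 224 had 2 and 205 had 3 or more. At the limit of the selection, Treg with 1 Foxp3 UMI held 7.93 UMIs of Ctla4 and 5.63 of Ikzf2 per 10000 over all libraries. CD8-negative T lymphocytes with no Foxp3 UMI held 2.03 and 1.07, and Treg with 3 or more held 11.2 and 7.61. Foxp3 was also seen outside the selected cells. Barcodes with no Cd3 UMI carried Foxp3 in 0.0784% (control) to 0.766% (AKI 2), against 1.82% to 12.2% of CD8-negative T lymphocytes, at median depths of 2949 to 5833 and 3012 to 4944.5 UMIs. Barcodes with no Cd3 UMI may include T lymphocytes whose Cd3 was not captured, so their share is not a measure of background alone. Proximal tubule barcodes reached 1.03% (AKI 2). Cd8 T lymphocytes, with at least 2 Cd8 UMIs, carried it in 0 of 327 in the control, 1.21% and 1.40% in the AKI libraries and 0.721% and 1.53% in the CKD libraries. Among the AKI and CKD libraries this was closest to the CD8-negative value in CKD 1 (2.70%). Macrophages with at least 5 C1q UMIs and no Cd3 UMI ranged from 0% (0 of 716 in the control, which allows a share of up to 0.419%) to 0.651%, at medians of 3926 to 12645 UMIs.

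RNA of tubule and macrophages was present in Treg barcodes. Over the 5 libraries the summed level of proximal tubule markers ranged from 2.64 UMIs per 10000 (CKD 2) to 33.8 (CKD 1), and that of distal nephron markers from 0.657 (CKD 2) to 32.2 (control). Endothelial markers reached 1.04 (AKI 2), and cytotoxic and natural killer cell markers 0.950 (CKD 2). B and plasma cell markers reached at most 0.273, and dendritic markers 0.258. Macrophage and monocyte markers, of which C1q was limited by the selection, ranged from 0.669 (control) to 2.74 (AKI 2). Lyz2 was seen in 47.3% of Treg, 47.6% of conventional CD4 and 45.8% of Cd8 T lymphocytes in AKI 2. T lymphocyte markers summed to 13.8 in the control and 33.9 to 43.4 in the other libraries. No barcode was Treg in 2 libraries, and none of the 122 control barcodes that recurred in CKD 2 at a higher total was Treg. No doublet caller was run.

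The first comparison asked how abundant Treg were at each stage. Treg made up 0.164% of kept barcodes in the control (exact 95% binomial interval 0.0916 to 0.270%). The AKI libraries stood at 2.20% (1.94 to 2.49%) and 3.10% (2.78 to 3.44%), and the CKD libraries at 0.554% (0.454 to 0.669%) and 2.00% (1.73 to 2.30%). These intervals cover counting error only, and the control had lost 38.7% of its barcodes to the mitochondrial limit. Both CKD libraries lay below both AKI libraries, the control lay below all 4, and CKD 1 lay well below CKD 2. The CKD mean was -1.37 percentage points relative to the AKI mean, and the SD within groups, pooled over both, was 0.849 (n = 2 libraries per group). The exact permutation test gave a 2-sided p of 0.333, the smallest that 2 libraries against 2 allow. With at least 2 Foxp3 UMIs the groups overlapped: Treg then made up 0.0873% of kept barcodes in the control, 0.955% and 1.61% in the AKI libraries and 0.186% and 1.08% in the CKD libraries.

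**Figure D1:**
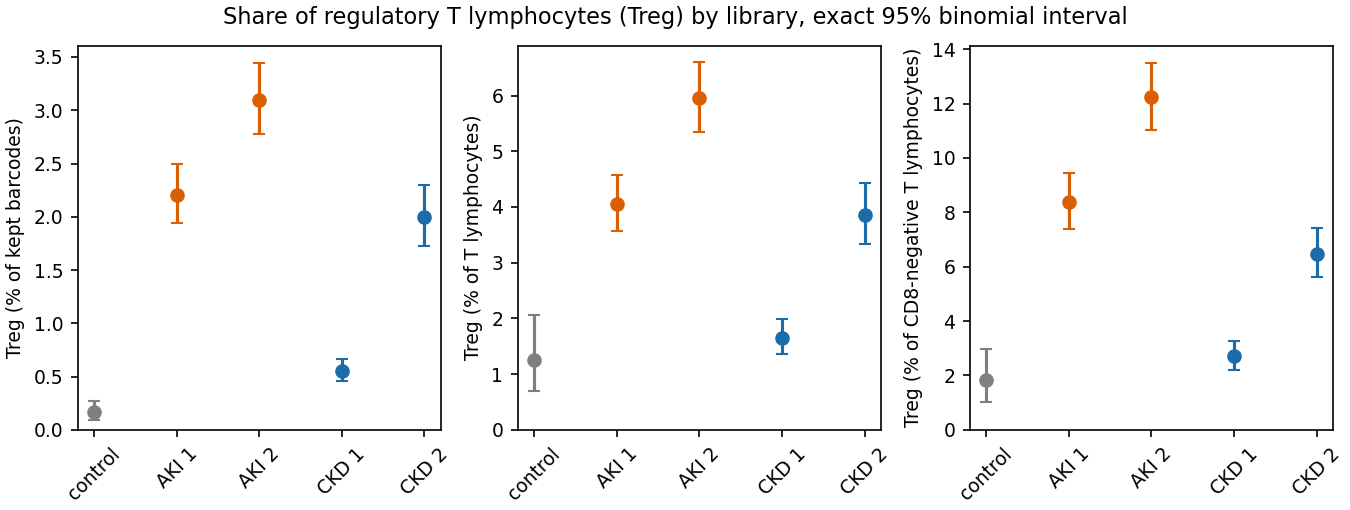
Percentage of Treg among kept barcodes, among T lymphocytes and among CD8-negative T lymphocytes (y axes) in each library (x axis); points are libraries and bars exact 95% binomial intervals. In every panel the control is lowest, both AKI libraries lie above both CKD libraries, and CKD 1 lies below CKD 2.

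Total T lymphocytes made up 13.1% of kept barcodes in the control, 54.4% and 52.0% in the AKI libraries and 33.5% and 51.8% in the CKD libraries, so the share of Treg was also taken within T lymphocytes. It was 1.25% in the control, 4.05% and 5.95% in the AKI libraries and 1.65% and 3.86% in the CKD libraries. The order of the libraries was the one seen among kept barcodes, and the counting intervals of AKI 1 (3.57 to 4.58%) and CKD 2 (3.34 to 4.43%) overlapped. The CKD mean was -2.25 points relative to AKI (pooled SD 1.45, n = 2 libraries per group). With at least 2 Foxp3 UMIs the share of T lymphocytes was 0.668% in the control, 1.76% and 3.10% in the AKI libraries and 0.556% and 2.09% in the CKD libraries, so that CKD 1 lay below the control and CKD 2 above AKI 1, and the difference of the means was -1.10 points (pooled SD 1.02). Among CD8-negative T lymphocytes, a denominator added after seeing the data, Treg made up 1.82% in the control, 8.38% and 12.2% in the AKI libraries and 2.70% and 6.47% in the CKD libraries.

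Because a deeper barcode is more likely to show a Foxp3 UMI, each barcode was thinned to 2000 UMIs and selected again. Treg then made up 0.850% of T lymphocytes in the control, 2.65% and 4.18% in the AKI libraries and 1.22% and 2.32% in the CKD libraries. All shares were smaller and the order of the libraries was kept. Barcodes with fewer UMIs were left out. The table of CKD 1 starts at 1229 UMIs per barcode and the others at 500 to 599, so the limit of 2000 UMIs puts the 5 libraries on 1 lower bound. It left 6950 in the control, 9149 and 9157 in the AKI libraries and 14760 and 8561 in the CKD libraries. A lower share can come from fewer Treg or from less Foxp3 RNA per cell, which cannot be told apart by this selection.

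The second comparison asked which genes set Treg apart from conventional CD4 T lymphocytes of the same libraries. UMIs were summed per library and type (895 Treg and 3919 conventional CD4 T lymphocytes) and tested with the library as a block. Genes read by the selection were left out. Cd4 was required of the conventional cells alone, and 26.7% to 45.8% of Treg showed a UMI of it. Conventional cells held proximal tubule markers at 6.24 to 33.9 per 10000 and macrophage and monocyte markers at 0.403 to 2.86. Endothelial markers stood at 0.799 to 3.56 in them against 0.0743 to 1.04 in Treg. They were higher in conventional cells in every library except CKD 1 (0.799 against 0.916). Fibroblast and pericyte markers stood at 1.05 against 0.00792 in CKD 2. The part of all this RNA in the differences was not tested. Of 8561 genes, 321 were higher in Treg (3.75% of those tested) and 214 lower (2.5%) past the threshold of 0.05 (quasi-likelihood test of edgeR, Benjamini-Hochberg adjusted over all genes), and the median log2 fold change of all genes was 0.0047. The count rested on the libraries used: it was 1439 without the control, and 178 without AKI 1, 122 without AKI 2, 277 without CKD 1 and 205 without CKD 2. Without the 18 Treg and 64 conventional barcodes above 20000 UMIs, a setting added after seeing the data, 1595 of 7826 genes passed, including 506 of the 535, with 852 higher in Treg (10.9% of those tested) and 743 lower (9.49%). This setting is called the depth limit below. Its counts are given beside several of the lists and are to be read against these larger shares.

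Of 14 identity genes tested, 11 were higher in Treg and none was lower, with a median log2 fold change of 1.65. Ctla4, the inhibitory receptor that takes CD80 and CD86 from antigen-presenting cells, stood at 2.97 per 10000 in the control, 9.16 and 9.24 in the AKI libraries and 7.16 and 9.51 in the CKD libraries. In conventional CD4 T lymphocytes it stood at 0.533, 2.46, 3.02, 2.12 and 2.70 in the same order. Treg were higher in every library, with a log2 fold change of 1.81 (SE 0.116, adjusted p = 8.29e-05 by the edgeR test). Ikzf2 was 2.50 log2 units higher (SE 0.124, adjusted p = 5.4e-05 by the same edgeR test) and Il2ra 2.92 (SE 0.228, adjusted p = 0.000262), the latter in the 4 AKI and CKD libraries but not in the control. Lrrc32, which encodes the TGF-beta docking protein GARP, was 2.72 higher and Ikzf4, the Helios relative Eos, 2.67 higher. The folate receptor family member Izumo1r was 1.41 higher, the actin-capping protein gene Capg 1.72, the integrin chain gene Itgae (CD103) 2.30 and the semaphorin receptor gene Nrp1 0.52 (adjusted p = 0.0453 in the edgeR test and 0.0608 by DESeq2). The call of Nrp1 was lost in 11 of 18 alternatives. Icos (-0.04, adjusted p = 0.938), Tigit (0.77, adjusted p = 0.122) and Il2rb (0.42, adjusted p = 0.364) did not pass the edgeR test. Under the depth limit 13 of 14 identity genes were higher, Tigit and Il2rb among them. Gpr83 was too low to be tested.

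Treg thinned to 2000 UMIs showed a UMI of Ctla4 in 57.1% (control) to 74.6% (CKD 2), against 10 of 149 (control) to 277 of 791 (AKI 2) conventional CD4 T lymphocytes and 9.52% to 25.7% of Cd8 T lymphocytes. Il2ra was seen in 7.14% of Treg in the control, 21.8% and 24.0% in the AKI libraries, and in 11 of 100 and 18.9% in the CKD libraries. Cd8 T lymphocytes, which hold little Il2ra at rest, showed it in 0% to 0.654%. Without thinning the Treg shares were 6.67%, 35.2%, 37.8%, 22.4% and 37.9%. Between 1 and 19 Treg per library were too shallow for the thinning.

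**Figure D2:**
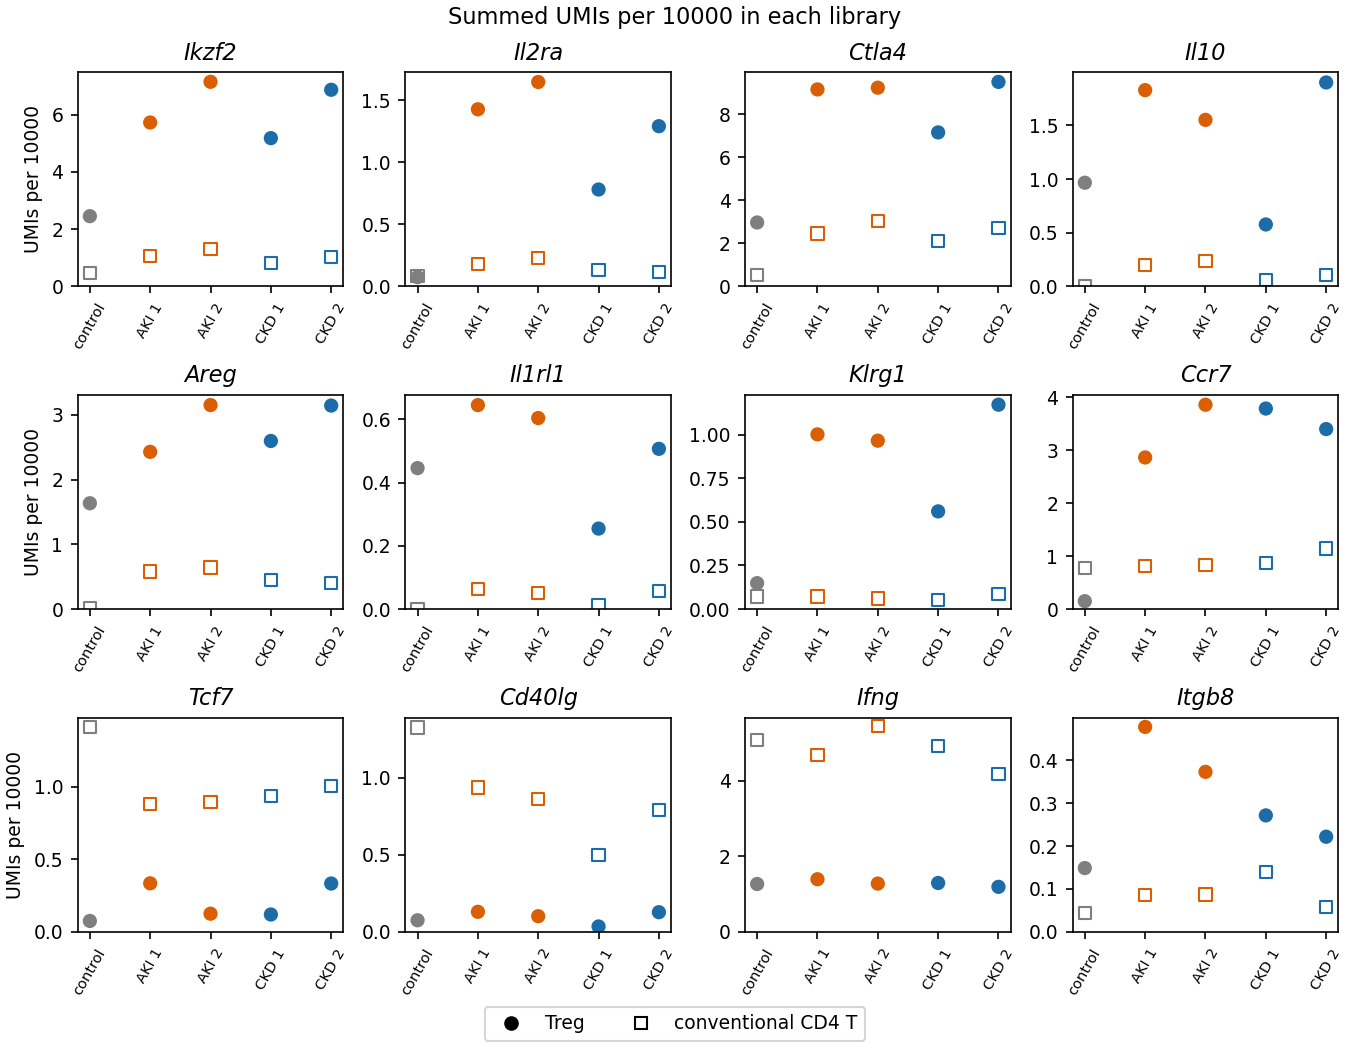
Summed UMIs per 10000 (y axes) of 12 genes in Treg (filled circles) and conventional CD4 T lymphocytes (open squares) of each library (x axes; grey control, orange AKI, blue CKD). Treg lie above conventional cells in every library for Ikzf2, Ctla4, Il10, Areg, Il1rl1, Klrg1 and Itgb8 and below them for Tcf7, Cd40lg and Ifng, while Il2ra and Ccr7 go the other way in the control.

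Among genes of suppression, 4 of 9 tested were higher in Treg and none was lower, with a median log2 fold change of 0.81. Under the depth limit 8 of 9 were higher. Il10, the anti-inflammatory cytokine, stood at 0.966 per 10000 in the control, 1.83 and 1.55 in the AKI libraries and 0.577 and 1.90 in the CKD libraries. Conventional CD4 T lymphocytes held 0 in the control and 0.0628 to 0.234 in the other libraries. Treg lay above them in all 5 libraries (log2 fold change 3.41, SE 0.281, adjusted p = 0.000356 by the edgeR test), while CKD 1 lay far below CKD 2. Fgl2, a secreted fibrinogen-like suppressor, was 1.51 higher, though lower in the control, at 0.446 against 0.993 per 10000. Nt5e (CD73, which makes adenosine) was 0.96 and the protease gene Gzmb 2.11 higher. Lag3 (0.81, adjusted p = 0.0592), Ebi3 (0.55, adjusted p = 0.0921), Tgfb1 (0.20, adjusted p = 0.549), Entpd1 (0.39, adjusted p = 0.543) and Pdcd1 (0.16, adjusted p = 0.670) did not pass the edgeR test, though all of these but Pdcd1 passed under the depth limit.

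Of 14 tissue-repair genes tested, 5 were higher in Treg and none was lower, with a median of 0.72. Under the depth limit 10 of 14 were higher. Areg stood at 1.63 per 10000 in the control, 2.43 and 3.15 in the AKI libraries and 2.60 and 3.14 in the CKD libraries. Conventional CD4 T lymphocytes held 0.0144, 0.580, 0.641, 0.448 and 0.403 in that order. The groups did not overlap in any library, and the log2 fold change was 2.59 (SE 0.265, adjusted p = 0.000866 by the edgeR test). Il1rl1 was 3.50 higher, with 0.446 in the control, 0.645 and 0.604 in the AKI libraries and 0.255 and 0.507 in the CKD libraries. Klrg1, an inhibitory lectin receptor of differentiated T lymphocytes, had the largest rise by the rule used for naming genes (3.65, SE 0.229, adjusted p = 7.87e-05 by the same edgeR test), with 0.149 in the control, 1.00 and 0.965 in the AKI libraries and 0.560 and 1.17 in the CKD libraries against 0.0524 to 0.0883 in conventional cells. In the control both Klrg1 UMIs came from the barcode with 52555 UMIs, and without barcodes above 20000 UMIs in both types the gene was at 0 in Treg there and at 0.0766 in conventional cells. The type 2 lineage factor Gata3 was 0.90 higher and the transcription factor gene Nfil3 1.20 higher. Rora (0.52, adjusted p = 0.215), Maf (0.26, adjusted p = 0.347), Ccr8 (0.81, adjusted p = 0.0850), Penk (0.86, adjusted p = 0.0992) and Batf (-0.25, adjusted p = 0.462) did not pass the edgeR test, the first 4 of them passed under the depth limit, and Pparg was too low to be tested.

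Treg also differed from conventional cells in the genes of T helper function, of which 6 of 10 tested were lower and none was higher, with a median of -1.65 (8 of 10 lower under the depth limit). Ifng, the type 1 effector cytokine, ranged from 1.19 to 1.39 UMIs per 10000 in Treg of the 5 libraries and from 4.16 to 5.45 in conventional cells (log2 fold change -1.95, SE 0.120, adjusted p = 7.52e-05 by the edgeR test). Cd40lg, the helper ligand for B lymphocytes, was -3.01, Il2 -2.10, the granzyme gene Gzmk -2.80, the cytotoxic granule gene Nkg7 -1.84 and the type 1 lineage factor Tbx21 -1.45. Every one of these was lower in Treg in all 5 libraries. Ccl5, an abundant chemokine of memory T lymphocytes, did not pass (-0.15, adjusted p = 0.755), with 25.6 to 39.2 UMIs per 10000 in Treg of the AKI and CKD libraries. The cytokine genes Il4, Il5, Il13, Il17a, Il17f and Il21 were too low to be tested.

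Genes of resting and recirculating T lymphocytes went in both directions, with 1 of 10 higher, 4 lower and a median of -0.29 (2 of 9 higher and 5 lower under the depth limit). Ccr7, the receptor that guides cells to lymph nodes, stood at 0.149 UMIs per 10000 in Treg of the control and 2.86 to 3.86 in those of the AKI and CKD libraries, against 0.777 to 1.14 in conventional cells of the 5 libraries. It was higher in Treg in the 4 injury libraries and lower in the control (log2 fold change 1.65, SE 0.357, adjusted p = 0.0279 by the edgeR test; adjusted p = 0.104 by DESeq2). Tcf7, a factor of naive and memory cells, was lower in Treg of all 5 libraries (-2.13, SE 0.280, adjusted p = 0.0030 by the edgeR test). Klf2 (-0.91), its target S1pr1 (-0.91), which lets cells leave tissue, and Bcl2 (-0.76) were also lower. Lef1 (-0.17, adjusted p = 0.864) and Il7r (0.54, adjusted p = 0.393) did not pass the edgeR test.

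**Figure D3:**
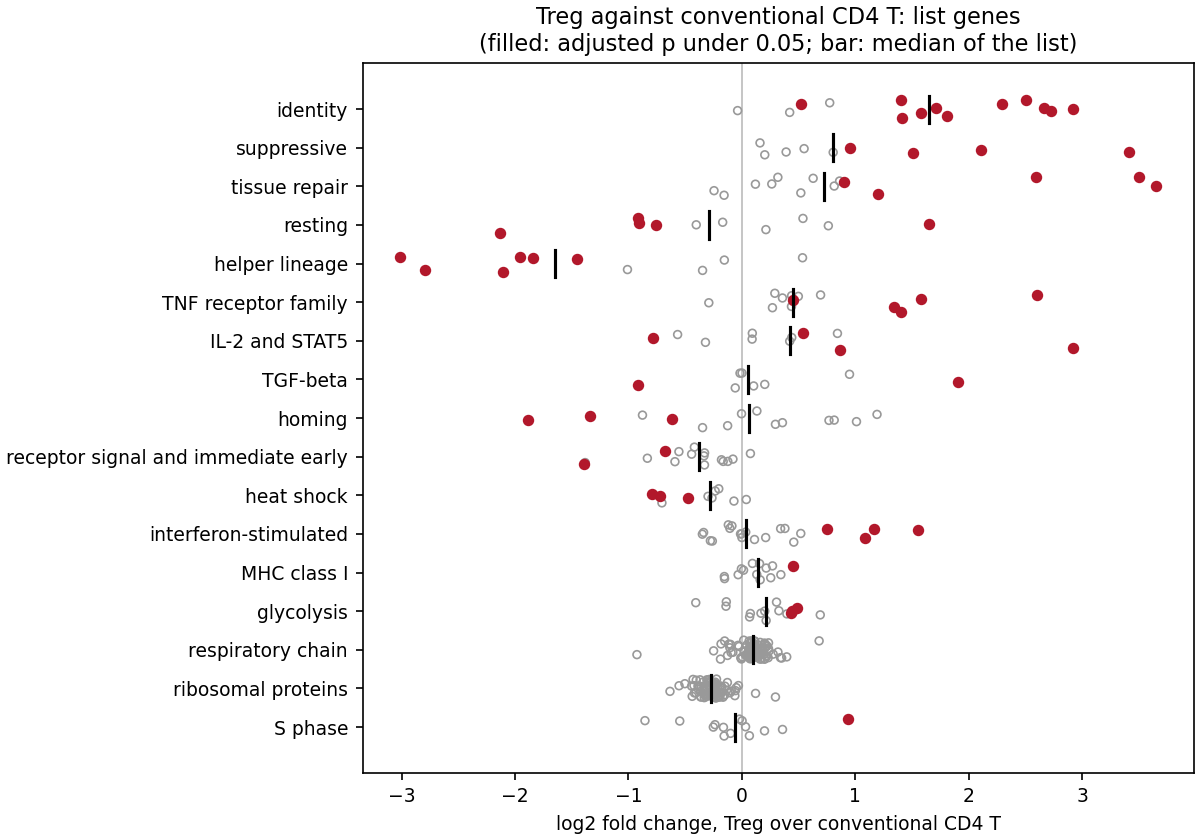
Log2 fold changes of Treg over conventional CD4 T lymphocytes (x axis) for the genes tested in each of 17 lists (y axis); filled points had an adjusted p under 0.05 and bars mark list medians. Identity genes have a median of 1.65 and helper genes one of -1.65, while ribosomal protein genes lie mostly left of 0 without a call.

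Receptors of the TNF family and their NF-kB targets included 5 higher and no lower genes among 13 (median 0.45), and 11 higher under the depth limit. Tnfrsf9 (4-1BB) was 2.60 higher, Tnfrsf4 (OX40) 1.58, Tnfrsf18 (GITR) 1.41, Cd27 1.34 and the NF-kB subunit gene Rel 0.45. In the IL-2 and STAT5 pathway 3 of 11 were higher and 1 lower (median 0.42; 6 higher and 2 lower under the depth limit): besides Il2ra, the feedback gene Cish (0.54) and Stat5a (0.86, adjusted p = 0.0418 in the edgeR test and 0.0815 by DESeq2) were higher and Socs3 (-0.78) lower. Among 8 TGF-beta genes, Itgb8, an integrin chain that frees TGF-beta, was 1.90 higher and the receptor Tgfbr2 was -0.91. Of 14 homing genes, Cxcr6 (-1.89), Itgb1 (-1.34) and Cd44 (-0.61) were lower and none was higher, but under the depth limit 6 were higher and 5 lower, so the list had no single direction. Itgb1 was higher in Treg in the control alone, at 5.27 against 3.34 UMIs per 10000, and its level there was 1.74 without the Treg barcodes above 20000 UMIs.

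Of 16 genes of receptor signalling and immediate early response, Nr4a2 (-0.68) and Dusp2 (-1.39) were lower, none was higher and 1 lay above 0, and 12 were lower under the depth limit. Heat shock genes, which respond to tissue dissociation, had 3 of 10 lower (Dnajb1 and the near-identical Hspa1a and Hspa1b, between which reads may be split) and a median of -0.28. Among 14 MHC class I genes Tapbp was higher, and among 14 S phase genes the histone gene H2afz, with 7 MHC class I genes higher under the depth limit. Interferon-stimulated genes had 4 of 21 higher (among them Oasl1 1.55, Igtp 1.17, which missed the threshold by DESeq2 at an adjusted p of 0.156, and Gbp7 1.08) and a median of 0.034, with 9 higher under the depth limit. Among 15 glycolysis genes Tpi1 (0.49), Pkm (0.44) and Pgk1 (0.43) were higher, and 7 were higher under the depth limit. The calls of Tpi1, Pkm and Pgk1 were lost in 10, 9 and 10 of 19 alternatives. Other calls were lost about as often. That of Dnajb1 was lost in 10 of 19, those of Cish and Stat5a in 9, and those of Ccr7 and Tapbp in 8. Those of Rel, Itgb1, Igtp, Nr4a2 and Socs3 were lost in 7 of 19, and that of S1pr1 in 8 of 18. None of 89 respiratory chain genes and none of 83 ribosomal protein genes passed, with medians of 0.099 and -0.27, and 2 of the 83 lay above 0. Under the depth limit, where 10.9% of all genes were higher and 9.49% lower, 6 of 85 respiratory chain genes were higher and 1 lower, and 1 of 83 ribosomal protein genes was higher and 23 lower. Among the list genes that passed, Nt5e, Oasl1, Igtp, Stat5a and Socs3 went the other way in the control. DESeq2 called 629 genes, 518 of them among the 535.

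The rule for naming genes took the 10 largest rises and falls whose types were separate in every library. Beyond genes already given, the rises were Neb (3.30), Ccr3 (3.27), Cxcl3 (3.13) and Dgat2 (2.68), which encode a sarcomere protein, an eosinophil chemokine receptor, a neutrophil chemokine and an enzyme of triglyceride synthesis. Neb had 3 UMIs over the control Treg, 142 and 181 over the AKI libraries and 29 and 89 over the CKD libraries, against 0 in conventional cells of the control. The falls included the chemokine genes Ccl1 (-3.81) and Xcl1 (-3.23), the TNF family ligands Tnfsf14 (-3.66) and Fasl (-2.82), the receptor gene Cd160 (-2.83), and Nrgn (-2.66), St8sia1 (-2.52) and Krt83 (-2.47). Xcl1, which attracts cross-presenting dendritic cells, had no UMI in Treg of the control, 0.956 and 0.983 per 10000 in the AKI libraries and 0.271 and 0.364 in the CKD libraries, against 2.83 to 8.37 in conventional cells. Tnfsf11, which encodes the osteoclast factor RANKL and was named after its values were seen, was -1.91 (adjusted p = 0.000262 by the edgeR test), with 0.213 to 0.238 in Treg of the AKI and CKD libraries against 0.809 to 0.891 in conventional cells.

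The third comparison asked how Treg of the CKD phase differed from those of the AKI phase. Of 8039 genes, 4 (0.0498% of those tested) passed the edgeR test at the same threshold, all higher in CKD: Acp5, Ctsk, Mmp9 and Mt3. By DESeq2 13 passed (10 higher, 3 lower), and 474 had an unadjusted p under 0.05 in edgeR. The count and its direction rested on the libraries used: 155 genes passed without CKD 1 (27 higher, 128 lower), 119 without CKD 2 (53 higher, 66 lower), 6 without AKI 1 (4 higher, 2 lower) and 6 without AKI 2 (all higher), and the 4 were among the genes called in each of these. Acp5 (tartrate-resistant acid phosphatase), Ctsk (cathepsin K) and Mmp9 are known as osteoclast genes, and Mt3 encodes a metallothionein. Acp5 stood at 0.223 per 10000 in the control, 0.660 and 0.640 in the AKI libraries and 5.45 and 7.91 in the CKD libraries. Ctsk had no UMI in the control, AKI 1 or AKI 2, and 3.39 per 10000 in CKD 1 and 5.58 in CKD 2. In conventional CD4 T lymphocytes Ctsk stood at 0, 0.00224, 0.00526, 1.03 and 0.508 per 10000, so its UMIs were there too more frequent in both CKD libraries. The same held there for Acp5 (0.649 and 0.865 in AKI, 2.22 and 1.31 in CKD). It held for Mmp9 (0.0358 and 0.0526 against 0.479 and 0.529) and Mt3 (0.0246 and 0.0342 against 0.191 and 0.0787). All 4 were also higher in both CKD libraries in Cd8 T lymphocytes, with Ctsk at 0.0114 and 0.0165 against 1.61 and 0.908.

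For each of these genes 1 Treg barcode held most of the UMIs in each CKD library. In CKD 1 the barcode with most UMIs of the gene held 84.4% of the Acp5, 91.0% of the Ctsk, 94.3% of the Mmp9 and 91.7% of the Mt3 UMIs of all 107 Treg. In CKD 2 the shares were 90.6%, 96.7%, 94.9% and 74.4% over 190 Treg. The macrophage marker Cd68 was distributed likewise, with 80.8% and 87.8% of its Treg UMIs in 1 barcode. The deepest Treg barcodes held 42104 UMIs in CKD 1 and 55685 in CKD 2. Without barcodes above 20000 UMIs, Mmp9 was 0.133 and 0.143 in the AKI libraries and 0.159 and 0.152 in the CKD libraries, Acp5 was 0.667, 0.695, 0.975 and 0.792, and Mt3, then too low to be tested, 0.0167, 0.0389, 0.0597 and 0.185 in that order. Ctsk was still without a UMI in the AKI libraries and stood at 0.318 and 0.194 in the CKD libraries. Over all barcodes 18 of 107 and 23 of 190 Treg of the CKD libraries carried Ctsk, as did 15.8% and 10.6% of their conventional CD4 T lymphocytes, against 0 of 247 and 0 of 336 Treg of the AKI libraries. Without the barcodes above 20000 UMIs no gene passed the edgeR test (603 of 7562 at an unadjusted p under 0.05). The same held without barcodes that carried at least 3 UMIs over a set of non-tubular markers (411 at an unadjusted p under 0.05). The set held markers of B and plasma cells, dendritic cells, neutrophils, endothelium, fibroblasts and pericytes, red cells and platelets. Macrophage and monocyte markers were not in it. In this setting all 4 genes had a value, and Mt3 and Ctsk lost the call but not a high fold. Over all alternatives with a value, the log2 fold change of Mt3 was 3.72 to 5.29. That of Ctsk was 7.74 to 12.7, against AKI libraries without a UMI. For Acp5 and Mmp9 the lowest values were -0.042 and 0.16. Whether the barcodes left out held more than 1 cell was not tested.

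**Figure D4:**
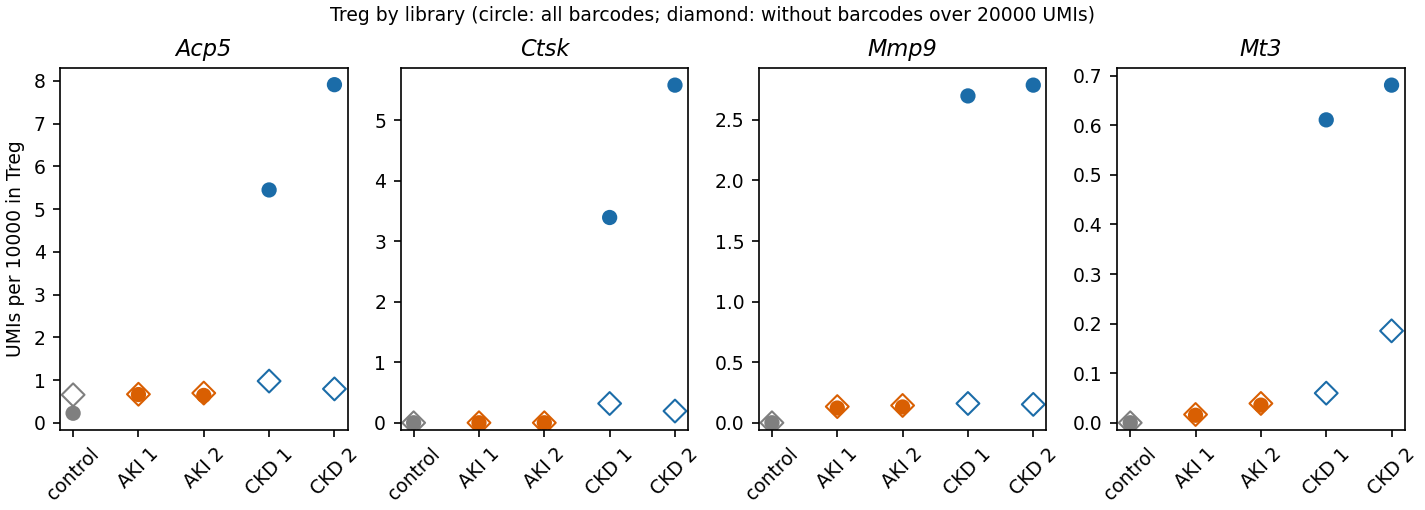
Summed UMIs per 10000 of Acp5, Ctsk, Mmp9 and Mt3 (y axes) in Treg of each library (x axes), over all barcodes (circles) and without barcodes above 20000 UMIs (diamonds). The CKD circles stand far above the AKI circles, and the CKD diamonds of Acp5 (0.975 and 0.792) and Mmp9 (0.159 and 0.152) lie close to the AKI ones, whereas those of Ctsk (0.318 and 0.194) stay above AKI libraries at 0. The CKD diamonds of Mt3 also lie above the AKI ones.

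No member of the 17 lists passed between CKD and AKI. Identity genes had a median log2 fold change of -0.29, with 2 of 14 above 0, and genes of suppression one of -0.18, with 2 of 9 above 0, beside -0.0031 over all genes. The summed identity level in Treg overlapped between AKI (48.3 and 54.5 per 10000) and CKD (41.6 and 54.6). That of suppression genes was lower in both CKD libraries in Treg (10.6 and 11.6 against 6.06 and 9.30) and in conventional cells (4.42 and 5.05 against 3.21 and 4.32). Tissue-repair genes had a median of 0.028, resting genes 0.11, TNF family receptors -0.023 and TGF-beta genes -0.40. Heat shock genes had a median of -0.20, with 0 of 10 above 0. Genes of receptor signalling and immediate early response had one of -0.28, with 4 of 15 above 0. Their summed level was 82.7 and 86.0 per 10000 in AKI Treg and 73.7 and 77.0 in CKD Treg. In conventional cells it was 122 and 123 in AKI and 87.0 and 98.0 in CKD, so it was lower there too. The summed level of TGF-beta genes in conventional cells was also lower in CKD (14.3 and 14.9 against 11.5 and 11.8). Nuclear respiratory chain genes had a median of 0.25, with 80 of 87 above 0, and one of 0.158 without barcodes above 20000 UMIs. Their summed level in Treg was 228 and 216 per 10000 in the AKI libraries and 290 and 235 in the CKD libraries, so that CKD 1 stood apart. CKD 1 was also highest among the AKI and CKD libraries in conventional CD4 (268) and Cd8 T lymphocytes (285), and its Treg held most proximal tubule markers (33.8), whose part was not tested. Glycolysis genes had a median of 0.25, with 11 of 15 above 0. Their summed level was also higher in CKD in conventional cells (27.5 and 27.1 in AKI, 33.4 and 30.8 in CKD). On simulated counts the edgeR test of CKD against AKI recovered 38.0% of 2-fold and 86.6% of 4-fold changes. Those counts gave every gene the same dispersion, and libraries differed only in depth and the planted changes. The rates may therefore not hold for these data.

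Some members were separate between the phases without passing the edgeR test. Fgl2 was 3.94 and 4.58 per 10000 in the AKI libraries and 1.39 and 2.07 in the CKD libraries, so that the groups were separate (log2 fold change -1.27, SE 0.237, adjusted p = 0.616 by the edgeR test and 0.0097 by DESeq2). Ikzf4 (-0.70), Itgae (-0.54), Lrrc32 (-0.33) and Il2ra (-0.53) were also below in both CKD libraries, with adjusted p of 0.802 to 0.807 in the edgeR test. Members were separate in the other direction too. Batf stood at 0.448 and 0.456 per 10000 in the AKI libraries and 0.577 and 0.776 in the CKD libraries. The glycolysis gene Aldoa stood at 3.60 and 3.64 against 4.62 and 4.19. A count of separate genes over all those tested is not given here, so no direction is read from these members. Il10 (-0.36, adjusted p = 0.939) and Areg (0.05, adjusted p = 0.994) overlapped between the groups.

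The last comparison asked whether the CKD against AKI difference in Treg departed from that in conventional CD4 T lymphocytes. Of 10877 genes, 4 (0.0368% of those tested) passed the interaction term of the edgeR test, and 413 had an unadjusted p under 0.05. Only Ctla2a also met the condition that its level in Treg be at least 0.25 of that in barcodes without Cd3. Ctla2a encodes a cysteine protease inhibitor of the cathepsin L propeptide type. In Treg it stood at 0.594 per 10000 in the control, 6.46 and 6.78 in the AKI libraries and 3.50 and 3.36 in the CKD libraries. In conventional CD4 T lymphocytes it stood at 3.35, 4.62, 5.47, 5.15 and 5.65 in the same order. Both CKD libraries lay below both AKI libraries in Treg, whereas the conventional cells overlapped between the phases.

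The CKD against AKI change of Ctla2a in Treg was thus lower than that in conventional cells by a log2 difference of -1.03 (SE 0.143, adjusted p = 0.0255 in the edgeR test), while the change within Treg alone was -0.96 (SE 0.140, adjusted p = 0.334 by the same test and 0.0010 by DESeq2, with a call by edgeR after thinning to 1000 UMIs). Its UMIs were spread over barcodes: 66.0% and 69.6% of Treg in the AKI libraries and 54.2% and 51.6% in the CKD libraries carried it, and the barcode with most held at most 8.0% of them in these 4 libraries. Without barcodes above 20000 UMIs the levels were 7.01, 7.26, 3.96 and 3.56, and the difference was -0.98 (adjusted p = 3.3e-09 by the edgeR test). That fit called 48 of 10333 genes (0.465%) in place of 4, 10 with the change in Treg above that in conventional cells and 38 below it, among them from the lists Il10 (1.01, adjusted p = 0.0230), Areg (0.65, adjusted p = 0.0248), Penk (1.26, adjusted p = 0.000321), Nkg7 (1.03, adjusted p = 1.6e-05), and Junb (0.57, adjusted p = 7.82e-05), these 5 all above, while over all barcodes these 5 had adjusted p of 0.663 or more in the edgeR test. Over the 15 alternatives the difference ranged from -1.73 to -0.96 and the adjusted p from 7.95e-11 to 0.122, and it missed the threshold in 4: without AKI 2 (adjusted p = 0.0912), with at least 2 Foxp3 UMIs (0.122), after thinning to 1000 UMIs (0.0523) and over genes at 0.25 of the level without Cd3 (0.0906). The close copy Ctla2b, with which reads can be confused, stood at 0.683 and 1.00 per 10000 in Treg of the AKI libraries and 0.255 and 0.586 in those of the CKD libraries, with an adjusted p of 0.982 for the interaction in the edgeR test.

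**Figure D5:**
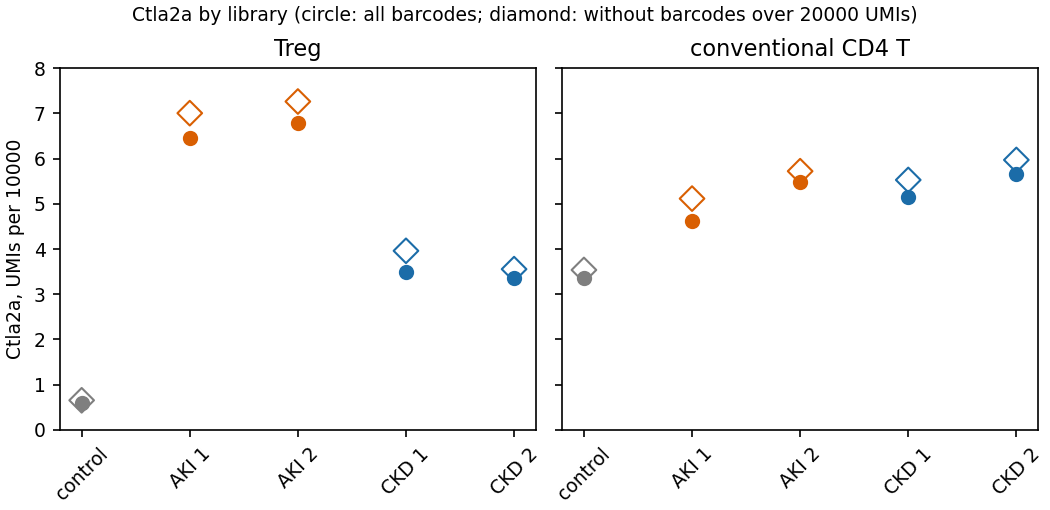
Summed UMIs per 10000 of Ctla2a (y axis) in Treg and conventional CD4 T lymphocytes of each library (x axes), over all barcodes (circles) and without barcodes above 20000 UMIs (diamonds). In Treg the AKI libraries (6.46 and 6.78) lie above the CKD libraries (3.50 and 3.36), and in conventional cells the phases overlap.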

How the data were processed

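For each of 5 libraries the authors deposited raw UMI counts by gene and barcode. The submitters' processing notes name Cell Ranger 7.2.0, STAR and GRCm39, but a different Cell Ranger version stands in the headers for AKI and CKD, and mm10 in the gene list of the control. The CellBender step, doublet removal and batch correction of the study were not run here. UMIs of Treg ranged from 134600 to 1688538 per library. Counts were summed per library and type in Python 3.11.15 and tested with edgeR 4.0.16 in R 4.3.3 (TMM, filterByExpr, quasi-likelihood test, Benjamini-Hochberg adjustment over all genes tested, call at 0.05); DESeq2 1.42.0 was the alternative. CKD was compared with AKI over 2 and 2 libraries without the control.

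The members and gene lists were chosen with earlier results of these data known. Genes named are list members and the 10 largest rises and falls that passed, were separate in every library, had at least 10 UMIs and reached 0.25 of the level in barcodes without Cd3. On simulated counts with 200 changed genes, 80.2% of 2-fold and 100% of 4-fold changes were recovered for Treg against conventional cells. For the interaction 25.5% and 75% were recovered. Here too every gene had the same dispersion, so the rates may not hold for these data. Some list members are not reported here by name.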

Additional observations from a re-analysis of the deposited data

Results flagged for a closer look

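For 4 genes the CKD against AKI change in Treg differed from that in conventional CD4 T lymphocytes by the interaction term of edgeR's quasi-likelihood test: Apoe by a log2 difference of 1.92 (adjusted p = 0.0016), S100g by 1.83 (adjusted p = 0.0101), Ctla2a by -1.03 (adjusted p = 0.0255) and Ccl17 by -4.31 (adjusted p = 0.0016). Apoe, an apolipoprotein abundant in macrophages, had 64.1% of its Treg UMIs in 1 barcode in CKD 1 and 82.4% in CKD 2, and its difference was -0.16 without barcodes above 20000 UMIs. S100g, a calcium-binding protein of the distal tubule, had 57.2% in 1 Treg barcode in CKD 1, and 33.4% and 63.8% of its UMIs in conventional cells of the AKI libraries in 1 barcode each. Its difference was 0.10 without barcodes above 20000 UMIs. Ccl17, a chemokine of dendritic cells, had 95.7% of its Treg UMIs in 1 barcode in AKI 1, and 78.4% of those in conventional cells of AKI 1 in 1 barcode. In conventional cells it stood at 0.197 and 0.0289 per 10000 in the AKI libraries and 0.288 and 1.37 in the CKD libraries. Of its 1131 UMIs in conventional cells of CKD 2, 82.8% lay in 5 barcodes. The difference for Ccl17 was -0.37 without barcodes above 20000 UMIs. The levels of Ctla2a in all libraries are given with the comparison of phases.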

How the results depend on the processing

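The CKD minus AKI difference in Treg share was below 0 in every setting run, but CKD 2 lay above AKI 1 with at least 2 Foxp3 UMIs among kept barcodes and T lymphocytes, and among T lymphocytes without barcodes with other cell type markers (3.72% against 3.54%). Leaving out 1 library at a time gave -2.10 to -0.65 points of kept barcodes and -3.35 to -1.14 of T lymphocytes; thinning to 1000 UMIs gave -0.464 of kept barcodes. The number of genes called between CKD and AKI was 13 by DESeq2, 3 after thinning to 1000 UMIs (Apoe, Ccl4 and Ctla2a, all lower in CKD, of 966 genes tested there, which did not include the 4), 83 with no filter on low counts, 21 without barcodes with at least 3 UMIs of any other cell type (tubule included, which left the control and CKD 1 out of the fit), 0 without barcodes above 20000 UMIs, 0 without those with non-tubular markers, and 6 to 155 with 1 library left out, the lone library being assumed to vary like the others (155 without CKD 1, 119 without CKD 2). With the replicate block it was 4; replicate numbers share only a number (correlation of deviations 0.062 over 8049 genes). Acp5 reversed to -0.042 without barcodes with other cell type markers. For Treg against conventional cells the number was 179 after thinning to 1000 UMIs, 297 with type alone and no replicate block, 809 with Cd4 required in both, 1595 without barcodes above 20000 UMIs, and 122 to 1439 with 1 library left out (libraries under 5000 Treg UMIs after a setting were left out of its fit). Of 68 genes named or called in a list there, none changed sign in the settings that gave a value, and 30 passed in each of those; 13 of the 30 had a value in all 19, the others in 12 or more. For the interaction the number was 64 with no filter, 0 after thinning to 1000 UMIs (98 at an unadjusted p under 0.05 in edgeR), 14 and 2 without barcodes with any or with non-tubular markers, 0 with genes at 0.25 of the level without Cd3 (303 at an unadjusted p under 0.05), 48 without barcodes above 20000 UMIs, and 1 to 140 with 1 library left out (27 without AKI 1, 1 without AKI 2, 140 without CKD 1, 49 without CKD 2). After thinning to 1000 UMIs Apoe reversed to -1.26 and S100g to -1.51, without barcodes above 20000 UMIs Apoe reversed to -0.16, and without non-tubular markers Ccl17 reversed to 2.32. The cause was not tested. Alternatives chosen after seeing the data were the limit of 20000 UMIs, the non-tubular markers and the CD8-negative denominator.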
